A study of Mus musculus with 7 samples.

Results

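The start of mouse chromosome 8 was described gene by gene, namely every GENCODE M1 gene (mm9 build) that begins between position 3000000 and the 3′ end of Cln8. The annotation held 153 such genes of 37310 in all, of which those with a measured level began between 3093369 (Gm7346) and 14881335 (Cln8). Of the 153, 104 were protein-coding, 14 processed transcripts and 8 pseudogenes. RNA could be measured for the 135 that had at least 200 exonic bases shared with no other gene on their strand, out of 31498 genes in the whole annotation, and the other 18, among them 6 miRNA genes, were left without a value. A mean of at least 5 FPKM over the libraries was reached by 58 members, here called the expressed members. FPKM stands for fragments per kilobase of exon, but here distinct alignments were counted and scaled to the alignments on genes of the library. The interval had been found because RNA from it was raised in 1 mutant library, so the ratios of that library to wild type are a description of how it was chosen.

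The study deleted a distal super-enhancer of Sox2 in F123 cells, a mouse embryonic stem (ES) cell line from a cross of Mus musculus castaneus (CAST) and 129 mice. RNA-seq was done on poly(A)+ RNA of 4 clones: wild type, CAST+/129- (enhancer deleted on the 129 allele), CAST-/129+ (deleted on the CAST allele) and CAST-/129- (deleted on both). Each genotype was 1 clone and 1 library, with no replicate. Cells transfected for the deletions were recovered on puromycin-resistant embryonic fibroblast feeders, and cells were passaged without feeders before harvest. ChIP-seq was available for H3K4me3 in F123 cells, for H3K27ac in F123 cells and for H3K27ac in J1, another ES cell line, 1 library each and all without a deletion. With 1 library per condition no test was possible, and the intervals given are exact 95% intervals for counting error only (binomial for the ratio of 2 counts, Poisson for 1 count). They treat alignments as independent, although a spliced RNA-seq read can give more than 1, so they may be too narrow. Differences between single clones that have nothing to do with the deletion cannot be told apart from differences between genotypes.

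Sox2, which encodes a core pluripotency factor and lies outside the interval, stood at 175 FPKM in wild type and at 82.0, 73.1 and 7.40 FPKM in CAST+/129-, CAST-/129+ and CAST-/129-, lowest in the clone labelled as lacking both copies of the enhancer. The libraries held 24848413, 12458895, 6058895 and 5831179 distinct alignments on genes in the same order. All 10 ES cell markers were detected in each library, with a summed level of 1809, 1610, 1558 and 1154 FPKM. The summed level of 10 fibroblast markers was 21.3, 100, 91.8 and 494 FPKM, each of the 10 being highest in CAST-/129- and Lum at 0 in wild type. The 7 trophectoderm markers measured summed to 21.1, 341, 574 and 546 FPKM, and those of extraembryonic endoderm to 294, 140, 202 and 238 FPKM, with Afp at 0 in wild type and CAST+/129- and Ttr at 0 in CAST-/129-. Sparc alone made up 116, 92.2, 115 and 189 FPKM of the endoderm sums. From wild type to CAST-/129-, Lama1 fell from 80.3 to 12.1 FPKM and Foxa2 rose from 1.36 to 11.4 FPKM, so this list did not move as 1.

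A chromosome end of this size holds genes that share neither a pathway nor a tissue. At the start of mouse chromosome 8 lie the genes of the insulin receptor and of its adaptor Irs2, the head-to-head pair of type IV collagen genes, the lysosomal membrane protein Lamp1, subunits of ubiquitin ligases, a block of C-type lectins and a cluster of coagulation factors. Genes that ES cells use usually start in CpG-rich DNA and carry H3K4me3 there, the mark of active promoters, while H3K27ac marks active promoters and enhancers. Retrocopies, made by reverse transcription of a spliced RNA, have a single exon and a sequence close to that of their parent gene.

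The DNA before the start of 7 members is shown because their RNA marks out the range of the interval. Irs2, Efnb2, Ctxn1, Camsap3 and Atp4b are the protein-coding genes among the 6 members past 3-fold in CAST-/129-, Lamp1 was the most abundant member with several exons, and Gm7381 was the member with the lowest ratio. Each line gives the 250 bases before the annotated start from the mm9 genome, 5′ to 3′ on the strand of the gene. The word promoter names this position only, and whether transcription starts there was not tested. Capitals mark the GC box (GGGCGG), the CCAAT box (CCAAT), the TATA box (TATAAA) and the E-box (CACGTG), searched on both strands.
Irs2 promoter, chr8:11008459-11008708, minus strand: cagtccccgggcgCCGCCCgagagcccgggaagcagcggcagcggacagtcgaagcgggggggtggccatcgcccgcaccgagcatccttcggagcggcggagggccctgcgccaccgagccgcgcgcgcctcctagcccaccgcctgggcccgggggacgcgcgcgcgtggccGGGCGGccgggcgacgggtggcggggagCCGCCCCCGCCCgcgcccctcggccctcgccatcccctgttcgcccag
Efnb2 promoter, chr8:8661240-8661489, minus strand: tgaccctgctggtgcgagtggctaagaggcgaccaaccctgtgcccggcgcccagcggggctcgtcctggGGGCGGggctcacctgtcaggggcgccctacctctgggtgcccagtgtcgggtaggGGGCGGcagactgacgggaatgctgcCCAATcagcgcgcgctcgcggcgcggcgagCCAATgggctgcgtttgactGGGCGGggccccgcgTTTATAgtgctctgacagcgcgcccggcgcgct
Ctxn1 promoter, chr8:4259275-4259524, minus strand: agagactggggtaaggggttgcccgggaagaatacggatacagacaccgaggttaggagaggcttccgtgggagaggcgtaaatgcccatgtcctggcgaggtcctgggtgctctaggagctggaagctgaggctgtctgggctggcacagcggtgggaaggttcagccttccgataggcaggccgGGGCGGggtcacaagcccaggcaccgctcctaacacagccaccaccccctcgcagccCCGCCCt
Camsap3 promoter, chr8:3587200-3587449, plus strand: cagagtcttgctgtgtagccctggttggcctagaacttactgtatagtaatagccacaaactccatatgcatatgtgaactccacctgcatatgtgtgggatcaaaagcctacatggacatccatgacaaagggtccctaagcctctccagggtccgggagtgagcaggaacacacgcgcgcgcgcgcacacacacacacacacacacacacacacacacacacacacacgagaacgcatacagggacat
Atp4b promoter, chr8:13396779-13397028, minus strand: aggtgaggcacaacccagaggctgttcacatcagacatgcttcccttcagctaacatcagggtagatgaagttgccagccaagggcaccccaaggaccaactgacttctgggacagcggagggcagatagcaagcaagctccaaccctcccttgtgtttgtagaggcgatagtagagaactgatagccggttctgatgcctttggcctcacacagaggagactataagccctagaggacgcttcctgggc
Lamp1 promoter, chr8:13158885-13159134, plus strand: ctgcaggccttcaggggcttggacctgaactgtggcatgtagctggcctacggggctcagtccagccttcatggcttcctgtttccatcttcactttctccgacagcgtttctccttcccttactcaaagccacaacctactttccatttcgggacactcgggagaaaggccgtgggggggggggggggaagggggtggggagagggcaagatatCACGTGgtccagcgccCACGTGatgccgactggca
Gm7381 promoter, chr8:3842396-3842645, minus strand: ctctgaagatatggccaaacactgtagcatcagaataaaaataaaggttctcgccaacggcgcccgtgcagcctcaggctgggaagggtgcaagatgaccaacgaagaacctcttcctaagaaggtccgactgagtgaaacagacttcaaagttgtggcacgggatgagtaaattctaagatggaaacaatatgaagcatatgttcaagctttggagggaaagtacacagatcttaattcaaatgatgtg

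The promoters of these 5 protein-coding genes differed in the motifs they held. Irs2 had 41 CpG and 4 GC boxes in 250 bases, and Efnb2 had 28 CpG, 3 GC boxes, 2 CCAAT boxes and 1 TATA box. Ctxn1 had 13 CpG and 2 GC boxes, whereas Camsap3, with 9 CpG, and Atp4b, with 4 CpG, had none of the 4 motifs. Lamp1 had 2 E-boxes and Gm7381 no motif. H3K4me3 around the annotated start of Gm7381 was 0.777 times the autosomal mean in F123 cells, so its stretch may not be a promoter. The exon of Gm7381 shares sequence with Wtap, a gene on chromosome 17. Whether the 250 bases before it belong to the same copy was not checked. Among the 58 expressed members the GC box was found in 56.9%, the CCAAT box in 39.7%, the TATA box in 5.17% and the E-box in 12.1%. Among all 9127 expressed autosomal genes these shares were 54.6%, 36.4%, 7.92% and 8.37%, and among all 29278 autosomal genes measured, 32.7%, 33.9%, 13.5% and 5.70%. The median number of CpG was 16 in the expressed members and 15 in the expressed autosomal genes.

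RNA from the interval was higher in the CAST-/129- clone and in neither of the clones that had lost 1 copy of the enhancer. The summed exonic counts of all 135 measured members made up 0.562% of the alignments on genes in wild type, and 0.526%, 0.424% and 1.15% in CAST+/129-, CAST-/129+ and CAST-/129-. The median log2 ratio to wild type, with a pseudo-value of 4 added to each FPKM, was 0.06 in CAST+/129-, -0.30 in CAST-/129+ and 0.96 in CAST-/129-. The description of the interval as raised therefore holds for 1 of the 3 mutant clones. Without the pseudo-value the median expressed member stood at 213% of wild type in CAST-/129-, and the summed counts of the 135 members at 204% (202 to 206).

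The rest of chromosome 8, 489 expressed genes, had medians of 0.07, -0.35 and -0.34 in the same 3 clones. By these medians the interval stood apart from the remainder of its chromosome in CAST-/129- and lay near it in the other clones. By summed counts of all measured genes, the interval was at 93.6% of wild type (92.7 to 94.5) in CAST+/129- and the rest at 104.3% (104.0 to 104.6), a smaller gap the other way. The interval minus the rest was -0.01 in CAST+/129-, 0.04 in CAST-/129+ and 1.31 in CAST-/129-. The rest of chromosome 8 lay below each of the other 18 autosomes in 2 clones, as their medians ranged from -0.11 to -0.01 in CAST-/129- and from -0.10 to 0.02 in CAST-/129+. The difference of 1.31 is therefore taken against a lower reference than the other autosomes, whose genes had a median of -0.07 in CAST-/129-. Compared with the other mutants instead of wild type, CAST-/129- gave 1.27 over CAST+/129- and 1.30 over CAST-/129+, again as the interval minus the rest, and CAST-/129+ over CAST+/129- gave 0.17. The 3 values that name CAST-/129- all rest on that 1 library. In bulk RNA, more cells of a type, more RNA per cell and more copies of a gene cannot be told apart, and the copy number of the interval in the clones was not measured.

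**Figure D1:**
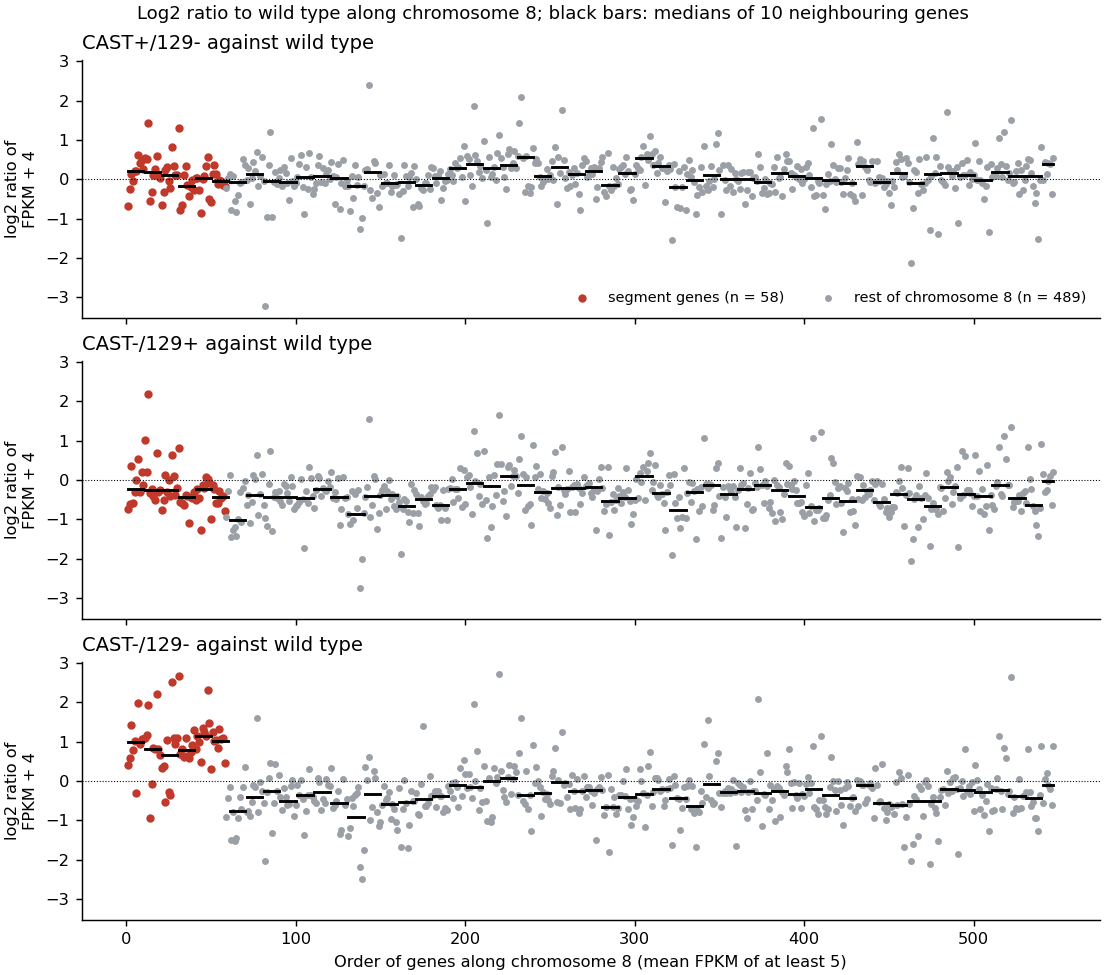
Log2 ratio to wild type (FPKM plus 4) of the expressed genes of chromosome 8, in their order along it, for each mutant clone. Red points are the 58 members, grey points the 489 other genes, and black bars the medians of 10 neighbouring genes. In CAST-/129- the first 5 bars lie between 0.67 and 1.15 and the 7th bar at -0.75. In CAST-/129+ the first 6 bars lie between -0.44 and -0.21 and the 7th at -1.02, and in CAST+/129- the 7th lies at -0.07.

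Counting error was exceeded in most expressed members of each clone, as it was in most genes of these libraries. In CAST-/129-, 52 of the 58 lay above wild type and 4 below (all expressed genes: 31.9% above and 43.9% below; rest of chromosome 8: 14.1% above and 67.1% below). In CAST+/129-, 24 lay above and 19 below (40.0% and 37.7% of all expressed genes, 47.6% and 31.5% in the rest of chromosome 8). In CAST-/129+, 9 lay above and 40 below (34.0% and 40.5% of all, 14.9% and 69.1% in the rest of chromosome 8). Over all expressed genes, an interval that leaves out equality was thus common in each of the 3 comparisons with wild type. At a threshold of 3-fold on FPKM plus 4, 6 of the 135 measured members were higher in CAST-/129- and 0 lower (all genes: 0.819% and 0.511%; rest of chromosome 8: 0.496% and 1.32%). The counts were 0 and 0 in CAST+/129- (all genes: 0.321% and 0.305%; rest of chromosome 8: 0.414% and 0.248%) and 1 and 0 in CAST-/129+ (all genes: 0.473% and 0.33%; rest of chromosome 8: 0.0827% and 0.827%). CAST-/129- held the highest of the 4 values in 51 of the 58, against 6.95% of the expressed genes of the rest of the chromosome and 18.7% of all expressed genes. Among the 58, 3 reached the mean of 5 FPKM with a wild type value below 5, namely Irs2, Atp4b and Zfp358, the last named here only for this.

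**Figure D2:**
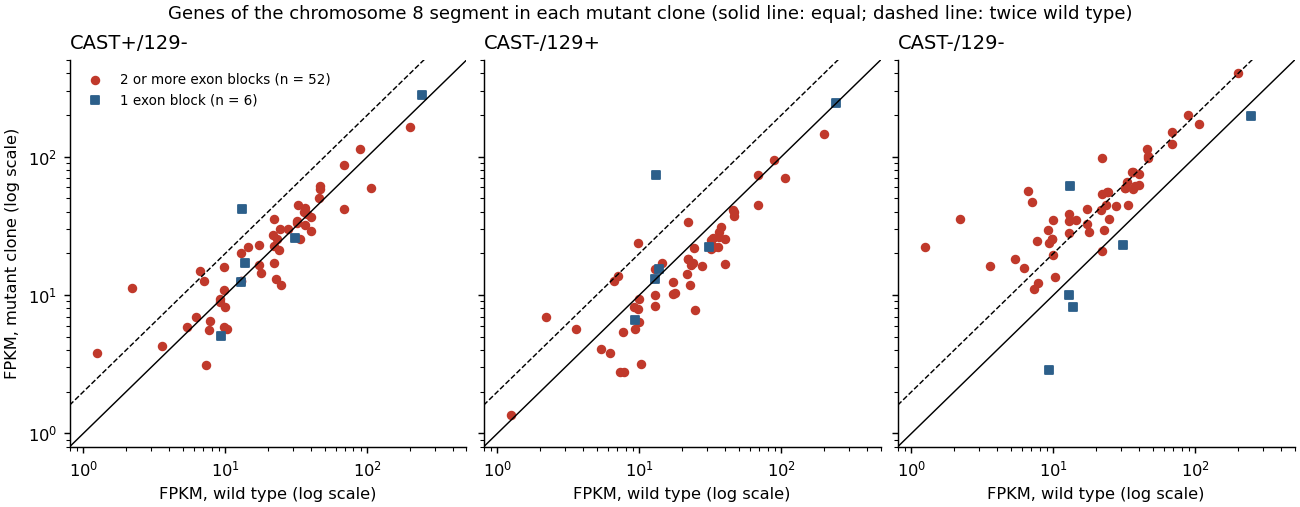
FPKM of the 58 expressed members in each mutant clone against wild type, on log axes. The solid line marks equal values and the dashed line a doubling. Red circles are the 52 members with 2 or more exon blocks and blue squares the 6 with 1. In CAST-/129- the circles lie around the dashed line and 5 of the 6 squares at or below the solid line.

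Of the signalling genes, Irs2 and Efnb2 had the highest log2 ratios of FPKM plus 4 in the interval, while Insr and Rasa3 were among the lower ones. Irs2, the adaptor that carries the signal of the insulin receptor, measured 2.19 FPKM in wild type, then 11.3, 6.89 and 35.7 FPKM in CAST+/129-, CAST-/129+ and CAST-/129-. All 3 mutants were above wild type, and CAST-/129- stood at 1629% of it (1402 to 1899), a log2 ratio of 2.68. Efnb2, the ligand ephrin-B2 of Eph receptors, measured 6.65, 14.9, 12.7 and 57.0 FPKM in the same order. Its order of libraries was that of Irs2, with CAST-/129- at 857% of wild type (786 to 934). Irs2 and Efnb2 were also among the 5 members with the highest ratios in both clones with 1 deleted allele, at 517% and 224% of wild type in CAST+/129- and 315% and 191% in CAST-/129+. Beside them in CAST-/129+ stood 2400009B08Rik, a transcript of unknown role, at 9.79, 16.01, 23.9 and 25.3 FPKM.

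Insr, the insulin receptor itself, did not share the order of Irs2. Its level was 7.32, 3.11, 2.80 and 11.1 FPKM, below wild type in both clones with 1 deleted allele and at 152% (139 to 167) in CAST-/129-. Rasa3, which shuts off Ras, had the same shape with 10.3, 5.64, 3.18 and 13.6 FPKM. Gas6, a ligand of the TAM receptor kinases, measured 9.87, 5.85, 9.29 and 34.7 FPKM. Map2k7, the kinase that activates JNK, measured 23.3, 25.2, 16.6 and 44.8 FPKM, close to a doubling in CAST-/129- alone. All 6 expressed genes of this list lay above wild type in CAST-/129-, with a median log2 ratio of 1.16 (whole interval: 52 of 58 and 0.96; all expressed genes: 31.9% above). The interval was chosen for being raised in this library, so neither this count nor those of the lists that follow says anything about a role. The remaining gene of the list, Grk1, did not exceed 0.116 FPKM in any library.

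**Figure D3:**
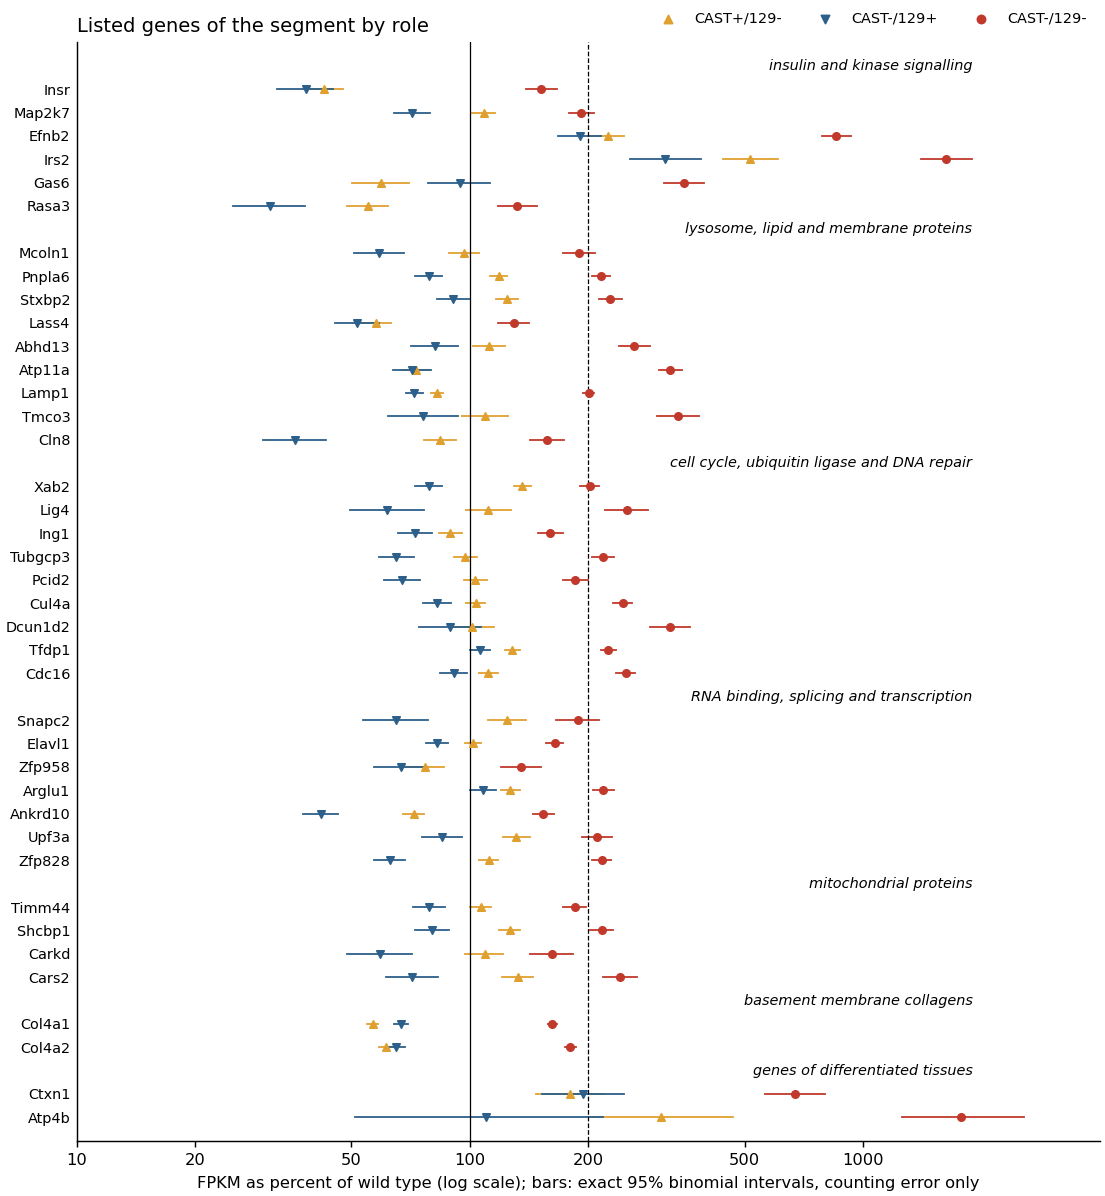
FPKM of expressed genes of the 7 lists described as a percentage of wild type (log axis) in the 3 mutant clones, grouped by role in the order along the chromosome, with exact 95% binomial intervals for counting error. The solid line marks 100% and the dashed line 200%. Every red point, CAST-/129-, lies to the right of the solid line, from Lass4 at 129% to Atp4b at 1777%.

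Lysosome, lipid and membrane proteins were 9 expressed genes, all above wild type in CAST-/129- (interval 52 of 58, all expressed genes 31.9%). Their median log2 ratio was 1.03. Lamp1, a major protein of the lysosomal membrane, was the most abundant of them at 201, 165, 145 and 402 FPKM, and its CAST-/129- value was 201% of wild type (194 to 207). The gene therefore lay at a doubling in CAST-/129- and below wild type in the other mutants. The flippase gene Atp11a went further, with 7.62, 5.57, 5.45 and 24.7 FPKM. Lass4, a ceramide synthase, had the lowest percentage of wild type among the expressed listed genes, with 22.8, 13.1, 11.8 and 29.5 FPKM. Mcoln1, a lysosomal cation channel, Pnpla6, a phospholipase, Stxbp2, which acts in exocytosis, Abhd13, Tmco3 and Cln8 ranged from 157% to 339% of wild type. All 9 were below wild type beyond counting error in CAST-/129+, as were 69.1% of the rest of chromosome 8 and 40.5% of all expressed genes. In CAST+/129- 4 of the 9 were below, near the 37.7% of all expressed genes.

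Genes of the cell cycle, ubiquitin ligases and DNA repair were all expressed. All 9 lay above wild type in CAST-/129-, like 52 of the 58 members and 31.9% of all expressed genes, with a median log2 ratio of 0.94 and a range from 160% (Ing1, a chromatin reader) to 323% (Dcun1d2, which promotes neddylation). Cdc16, a subunit of the anaphase-promoting complex, measured 45.6, 50.7, 41.5 and 114 FPKM. Tfdp1, the partner of E2F factors, measured 89.3, 115, 94.7 and 201 FPKM. For both genes the first 3 libraries lay close together and CAST-/129- stood apart. Cul4a, the scaffold of a cullin ubiquitin ligase, was at 245% of wild type (232 to 259). Lig4, the ligase of non-homologous end joining, was at 251% (220 to 285), Xab2 at 202%, Pcid2 at 186% and the gamma-tubulin complex gene Tubgcp3 at 218%.

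RNA-binding, splicing and transcription genes gave 7 of 7 above wild type in CAST-/129- (interval 52 of 58, all expressed genes 31.9%), with a median log2 ratio of 0.80. Elavl1, which encodes the RNA-binding protein HuR, measured 37.6, 38.3, 31.0 and 61.8 FPKM. Upf3a, a factor of nonsense-mediated decay, measured 46.5, 61.1, 39.6 and 98.0 FPKM. CAST-/129- was the highest library for both, and CAST-/129+ the lowest. Ankrd10 was among the members with the lowest ratios in CAST-/129+, at 41.8% of wild type (37.6 to 46.3), and was at 154% in CAST-/129-. Arglu1, Snapc2, Zfp828 and Zfp958 lay between 135% and 218% of wild type in CAST-/129-.

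The list of mitochondrial proteins had 4 expressed genes, all above wild type in CAST-/129- (interval 52 of 58, all expressed genes 31.9%). Their median log2 ratio was 0.93, but Shcbp1, a protein of cell division, had been placed in the list by mistake. Timm44, part of the protein import machinery, stood at 185% of wild type. Cars2, the mitochondrial cysteinyl-tRNA synthetase, stood at 241%, and Carkd, a repair enzyme for damaged NAD(P)H, at 162%. Shcbp1 itself stood at 217%. Camsap3, which binds the minus ends of microtubules, measured 22.1, 35.6, 33.5 and 98.5 FPKM, a log2 ratio of 1.98 in CAST-/129-. Trappc5, a subunit of a vesicle tethering complex, was at 264%. Grtp1 was at 145% in CAST-/129-. In CAST+/129- and CAST-/129+ it stood at 47.8% and 31.8%, the lowest log2 ratio of FPKM plus 4 among the expressed members in both, although Insr in the first and Rasa3 in the second were lower as plain percentages.

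The collagen pair Col4a1 and Col4a2 encodes the main chains of the basement membrane network, and the 2 genes start head to head. Col4a1 measured 106, 59.9, 70.8 and 171 FPKM, and Col4a2 measured 68.9, 42.1, 44.8 and 124 FPKM. Both genes kept the same order of libraries, with wild type in second place. Both lay below wild type in the clones with 1 deleted allele, between 56.6% and 66.9%, and above it in CAST-/129-, at 162% (158 to 167) and 180% (174 to 186). The fibroblast markers that moved in the same library, with a summed level of 494 FPKM against 21.3 in wild type, also encode collagens and matrix proteins; their part in the values of Col4a1, Col4a2, Gas6 or Efnb2 was not tested.

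Of the 6 genes in the interval known from differentiated tissues, 2 were expressed. Ctxn1, a membrane protein of neurons, measured 7.07, 12.7, 13.8 and 47.4 FPKM, a log2 ratio of 2.21 in CAST-/129-. Atp4b, the beta subunit of the gastric proton pump, measured 1.24, 3.81, 1.37 and 22.1 FPKM. It lay below 5 FPKM in 3 libraries and reached 1777% of wild type (1258 to 2564) in CAST-/129-. Of the other 4, none exceeded 5.37 FPKM in any library. The 3 coagulation factor genes did not exceed 0.922 FPKM in any library. Of the 12 lectin, cytokine and secreted protein genes none was expressed by the mean, although the chemokine gene Ccl25, picked after its values were seen, measured 0.929, 2.11, 2.96 and 8.69 FPKM.

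Members with a single exon did not follow the rest. Of the 20 members whose exons merged into 1 block, 6 were expressed, and in CAST-/129- 1 of the 6 was above wild type and 4 below, with a median log2 ratio of -0.33. The calls below wild type depended on the counting: over the 58 they were 0 with each start position counted once, 1 with reads before collapsing, and 2 after thinning to the shallowest library or with all distinct alignments as library size. Of the 52 expressed members with 2 or more blocks, 51 were above and 0 below, with a median of 1.02. The exception, Gm16589 (named after its value was seen), was at 94.4% (81.9 to 109). Of all expressed genes, 31.9% were above and 43.9% below, and the interval was chosen for this ratio. Gm10186 had the highest level of these single-block genes at 245, 282, 244 and 198 FPKM. Gm7381 measured 9.26, 5.08, 6.60 and 2.86 FPKM, with 5 alignments in CAST-/129- behind the last value. Gm6396, Gm1840 and Rpl21-ps14 stood at 60.0% (35.6 to 96.2), 74.7% (63.7 to 87.2) and 77.5% (49.8 to 116) of wild type.

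These 5 genes share much of their sequence with genes elsewhere. Of the different 30-base words in its exons, Gm10186 shared 85.1% with transcripts of the ribosomal protein gene Rps23 on chromosome 13. Gm6396 shared 66.5% with Fam136a on chromosome 6, Gm1840 60.8% with Gpi1 on chromosome 7, Gm7381 40.2% with Wtap on chromosome 17, and Rpl21-ps14 44.9% with Gm10240 on chromosome 15. Reads of those genes could have been placed on the members, and the values of the 5 are uncertain for that reason. The log2 ratio to wild type in CAST-/129- was 0.25 for Rps23, 0.28 for Fam136a, 0.53 for Gpi1, -0.33 for Wtap and -0.03 for Gm10240. Among the 51 expressed members that shared under 10% of their words with a protein-coding transcript of another gene, 50 were above wild type in CAST-/129- and 0 below. Of all expressed genes, 31.9% were above and 43.9% below. The interval was chosen for this ratio, so the count describes the choice. The other 7 expressed members were the 5 single-exon genes, Map2k7 and Zfp958. Map2k7 shared its 15.8% with Gm14378, an entry annotated within Map2k7 on the same strand and not a gene elsewhere.

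The single-exon member that was above wild type was RNaseP_nuc, an entry annotated as a miscellaneous RNA and named for the RNA of nuclear RNase P, whose functional transcript has no poly(A) tail. Whether reads of another RNase P RNA gene were placed on it was not checked, and its values are uncertain for that reason. It measured 13 FPKM in wild type, and 41.8, 73.4 and 61.5 FPKM in the 3 mutants in the same order. All 3 mutants were above wild type, and the highest was CAST-/129+, not CAST-/129-. It was the member past 3-fold in CAST-/129+, with a log2 ratio of 2.18, and its CAST-/129- ratio was 1.94. The libraries were made from poly(A)+ RNA, so that a transcript without a tail is read only as far as it passed the selection.

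Weakly transcribed members were higher in CAST-/129- as a sum, while most of them showed no call of their own. Of the 77 members below a mean of 5 FPKM, 66 lay below 1 FPKM, and 24 of these were at 0 in every library and 39 at 0 in CAST-/129-. Of the 66, 9 were above and 2 below wild type in CAST-/129-, and of the 11 members between 1 and 5 FPKM, 8 were above and 1 below. The share of such calls among other genes at these levels was not computed, so the counts cannot be called high or low. Together the 77 held 1809 alignments in wild type, and 755, 299 and 956 in CAST+/129-, CAST-/129+ and CAST-/129-. Relative to wild type these counts came to 83.2% (76.4 to 90.7), 67.8% (59.8 to 76.7) and 225% (208 to 244). For the 720 such genes of the rest of chromosome 8 the shares were 72.8%, 56.0% and 74.7%. Alignments in introns, which come mostly from unspliced RNA, gave 64.2% (59.1 to 69.8), 50.1% (44.1 to 56.7) and 206% (191 to 221) of wild type over the interval. Over the introns of the rest of chromosome 8 they gave 69.4%, 57.2% and 45.4%. The interval was chosen for being raised in CAST-/129-, weak genes included. That these sums were highest in the same library describes the choice and is no separate support for it.

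At the right end, the last 3 expressed members were 2610019F03Rik, at 9.25, 8.87, 5.67 and 23.9 FPKM, Erich1, at 23.8, 21.2, 16.9 and 55.8 FPKM, and Cln8, at 7.78, 6.54, 2.80 and 12.2 FPKM. Their log2 ratios in CAST-/129- were 1.07, 1.1 and 0.46. The first 3 expressed genes beyond the end were Mcph1, Agpat5 and Rpl19-ps11, with -0.90, -0.42 and -0.16. Between Cln8 and these lay Arhgef10, the next gene, with a mean just below 5 FPKM, which like Kbtbd11 is named outside the rule for its position. It measured 7.51, 2.998, 1.88 and 7.11 FPKM, 94.7% of wild type in CAST-/129- (84.5 to 106), but 237% of CAST+/129- and 378% of CAST-/129+. Kbtbd11, further on, measured 3.89, 0.818, 0.355 and 0.861 FPKM, 22.1% of wild type. Along the interval, medians of 10 neighbouring members in CAST-/129- were 0.98, 0.82, 0.67, 0.78 and 1.15, the lowest in the middle and the highest at the last of the 5. The middle block held the single-exon genes Gm6396, Rpl21-ps14 and Gm1840, at -0.53, -0.27 and -0.37, whose values are uncertain. Gm10186 lay in the first block and Gm7381 in the second. Medians without these genes were not computed, so the order of the blocks may rest on them.

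Chromatin marks at the promoters were measured in cells without a deletion. In F123 cells H3K4me3 within 2 kb of the gene start was at least 5 times the autosomal mean in 47 of the 58 expressed members (81.0%), against 83.6% in the rest of chromosome 8 and 77.6% in the other autosomes. H3K27ac at that threshold was found at 20 of the 58 in F123 cells (34.5%), against 52.1% and 54.2%. In J1 cells it was found at 12 of the 58 (20.7%), against 41.7% and 42.1%. The share of members with H3K4me3 thus lay between those of the other regions, and the share with H3K27ac was the lowest of the 3 in both cell lines, without a test as each mark had 1 library per line. Genes that start head to head share most of their window, so the members are not independent promoters. Lig4 and Abhd13, for example, both held 132 H3K4me3 alignments, and Col4a1 and Col4a2 both 111. Shared windows were not counted in any region. The median H3K27ac enrichment of the expressed members was 3.10 in F123 cells against 5.04 in the rest of the chromosome, and 3.23 against 4.18 in J1 cells. The F123 library of H3K27ac was small, at 1576875 distinct alignments, so that the median promoter rests on few of them.

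Among the 6 members past 3-fold the marks varied widely. Irs2 had an H3K4me3 enrichment of 22.3 (19.6 to 25.2) and an H3K27ac enrichment of 6.98 (4.13 to 11.03) in F123 cells. Efnb2 had 15.8 (13.6 to 18.3) for H3K4me3 and 2.71 (1.09 to 5.59) for H3K27ac. Both genes carried H3K4me3 while their RNA in wild type was under 10 FPKM. Ctxn1 had an H3K27ac enrichment of 9.69 and H3K4me3 of 6.56, and Camsap3 had 5.81 and 8.72. Atp4b and RNaseP_nuc lay below the threshold for both marks, at 1.21 and 0.173 for H3K4me3 and at 0.775 and 0 for H3K27ac. No interval was given for the count of 0, and 3 alignments would be an enrichment of 1.16. All 47 expressed members at or over the H3K4me3 threshold, some of which share a window, were above wild type in CAST-/129-. Their median log2 ratio was 1.03. In the whole interval 52 of 58 were above, and of all expressed genes 31.9%. Of the 11 below the threshold, 5 were above and 4 below wild type, and these 11 included the 6 single-block genes. The 4 were single-block genes, and 0 members with 2 or more blocks were below. The interval was chosen for this ratio, and a link between mark and ratio was not tested.

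Outside genes, ChIP-seq reads are mostly background and follow the amount of DNA. In 1 kb bins at least 10 kb from any gene, without bins over 5 times the mean, the interval had 1.01 times the alignments of the other autosomes in the H3K4me3 library of F123 cells (0.99 to 1.03). In the H3K27ac libraries it had 1.004 in F123 cells (0.95 to 1.06) and 1.01 in J1 cells (0.99 to 1.03). The rest of chromosome 8 had 1.03, 1.02 and 1.07. In these undeleted cells the interval lay within the range of single autosomes, 0.91 to 1.13 in the F123 library of H3K27ac. These libraries hold no DNA of the deletion clones.

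**Figure D4:**
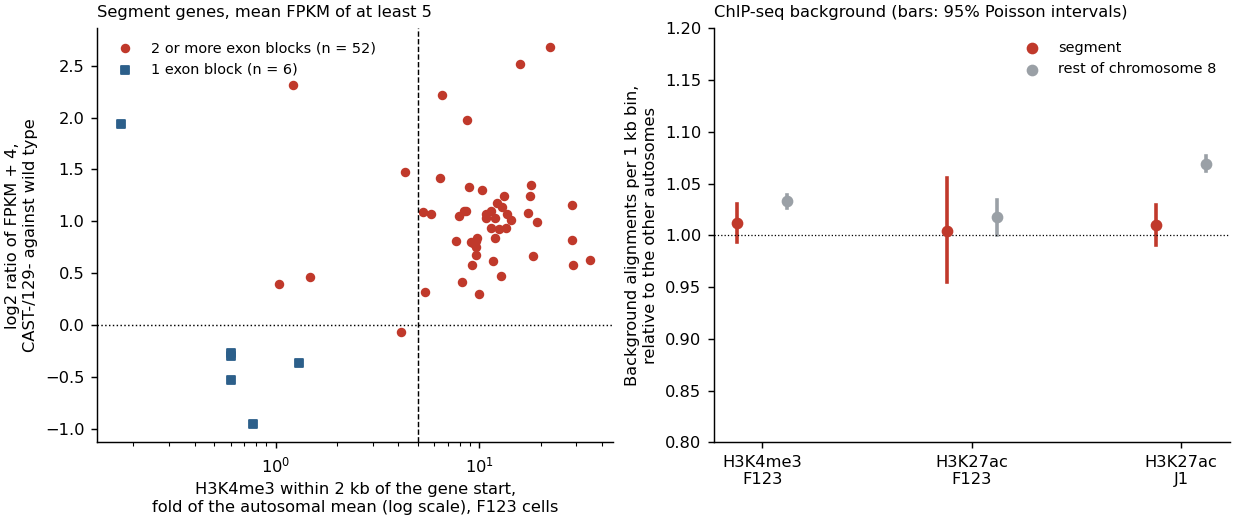
Left, H3K4me3 within 2 kb of the gene start in F123 cells (fold of the autosomal mean, log axis) against the log2 ratio of CAST-/129- to wild type for the 58 expressed members, red circles with 2 or more exon blocks and blue squares with 1; every point to the right of the dashed line at 5 is above 0. Right, background alignments per 1 kb bin relative to the other autosomes in the 3 ChIP-seq libraries, for the interval (red) and the rest of chromosome 8 (grey), with 95% Poisson intervals; the red points lie between 1.004 and 1.01.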

How the data were processed

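Each deposited file listed distinct alignments with chromosome, start, end, strand and a whole number, the count of reads behind each alignment. The authors mapped RNA-seq reads with Novoalign and USeq and ChIP-seq reads with Bowtie to mm9, and neither versions nor filters are given in the sources used here. An alignment (each segment of a spliced read by itself) was counted once, at its midpoint, on the exons of GENCODE M1, with the transcript on the strand opposite to that in the file, and bases shared by genes of a strand were left out. FPKM were these counts per kilobase of own exons, scaled to the alignments on genes. Ratios used FPKM plus 4, the pseudo-value of the study, and calls its 3-fold threshold. Intervals were computed with scipy 1.17.1, and the calculation was tested on simulated data. With 1 library per condition no test was run. Members and gene lists were chosen with earlier results of these data known. Genes were named if they were in a list with a mean FPKM of at least 5, had 1 of the 5 highest or lowest ratios in a mutant, were past 3-fold, or were the 3 expressed genes on either side of the right end. Promoters were windows of 2 kb on each side of the gene start. Of the symbols listed, Sox1, Pet100 and Champ1 are not in this annotation under those names, and Pex11g is there as Pex11c, so it was not counted in its list. The result of 1 list is not reported here, and its members are named only where another part of the rule names them or where their role is given. Allele-specific reads were not analysed here. Figures were drawn with matplotlib 3.10.9 and tables handled with pandas 2.3.3. Reads were not checked for placement on copies beyond the 30-base words described.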

Additional observations from a re-analysis of the deposited data

Results flagged for a closer look

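The interval moved in opposite directions in the CAST-/129- and CAST-/129+ clones relative to wild type: the median log2 ratio over the expressed members was 0.96 in CAST-/129- and -0.30 in CAST-/129+. The rest of chromosome 8 had -0.34 and -0.35 in these clones, so that the value in CAST-/129+ was close to that of the whole chromosome (0.04 above the rest) and the value in CAST-/129- was not. Each value comes from 1 library, both share the wild type library, and the difference between them was not tested.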

How the results depend on the processing

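No paired analysis was possible because each condition had 1 library and the labels carry no replicate numbers, and for the same reason no replicate could be left out. The interval minus the rest of chromosome 8 was above 0 in each of 17 settings for CAST-/129- over wild type (0.23 to 1.83), over CAST+/129- (0.27 to 1.45) and over CAST-/129+ (0.15 to 1.44). The interval was chosen for being raised in CAST-/129-, so this sign describes the choice and is no separate support for it. All 3 pairs rest on that 1 library. With the end moved 2 Mb to the right they kept their main values of 1.31, 1.27 and 1.30. Of 315 values recomputed under an alternative, 253 moved by less than the yardstick, 59 moved further, and 3 moved further and turned sign. Some values near 0 also changed sign within the yardstick. The interval minus the rest in CAST+/129- went from -0.01 to 0.03 at a mean FPKM of at least 1. For counts the yardstick was 1.5 times, and for log2 medians the counting error of a typical single member (0.12 for CAST-/129- over wild type), which is wider than that of a sum over the members. Values below are log2 medians of the interval ("interval") or of the interval minus the rest ("difference"), and members above or below wild type beyond counting error or past the fold threshold. Depth limited low members most: 5 alignments stood behind Gm7381 in CAST-/129-. The pseudo-value does not enter the counts beyond counting error, nor the filter on low values those past a fold. The causes of the changes were not tested, apart from those that the setting makes by leaving out genes.

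Over all distinct alignments as library size, 2 members were below in CAST-/129-. With reads before collapsing it was 1, and 1 was past 3-fold higher in CAST+/129-. With each start position once, the interval was 0.79 and the difference 1.12 in CAST-/129- (1.1 over CAST+/129-), and 0 were below. After thinning to the shallowest library, 2 were below in CAST-/129- and 1 past 3-fold higher in CAST+/129-. With a pseudo-value of 1, 3 members were past 3-fold higher in CAST+/129-, 1 lower in CAST-/129+ and 11 higher in CAST-/129-, with differences of 1.46 and, over CAST+/129-, 1.45. With a pseudo-value of 10 the interval was 0.82 and the difference 1.08 in CAST-/129-, 1.06 over CAST+/129- and 1.05 over CAST-/129+. At a mean FPKM of at least 1 they were 0.84 and 1.13. At a mean of at least 50, the interval was 0.20 in CAST+/129- with 6 above and 3 below, the difference turned to -0.17 in CAST-/129+ with 1 above and 6 below, and the difference was 1.17 in CAST-/129- with 8 above and 1 below. With no filter, the interval was -0.0061 in CAST-/129+ with 16 above, and 0.21 in CAST-/129- with 7 below and differences of 0.23, 0.27 over CAST+/129- and 0.15 over CAST-/129+. With protein-coding genes only, 0 were past 3-fold higher in CAST-/129+. At 2-fold, 2 were higher in CAST+/129-, 2 higher and 2 lower in CAST-/129+ and 29 higher in CAST-/129-. At 5-fold these were 0 higher in CAST-/129+ and 2 higher in CAST-/129-. Shares of all genes were computed only at the main settings, so the counts of members under other settings have no background. With the end moved 2 Mb to the left the difference was 1.14 in CAST-/129-. With intronic alignments, which left 5 members and 59 genes of the rest, the interval turned to -0.59 in CAST+/129- and 0.0085 in CAST-/129+ and was 0.73 in CAST-/129-. Differences were then -0.31, 0.89 and 1.83, with 0.63 for CAST-/129- over CAST-/129+ and 0.53 for CAST-/129+ over CAST+/129-. The summed intronic counts in CAST-/129+, 50.1% of wild type against 57.2% in the rest, went the other way from these few genes. A filter on wild type FPKM of at least 5, chosen after seeing the data, left 56 members, 55 of them among the 58, and gave 0.93 in CAST-/129-.

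The ChIP-seq background of the interval with no bins left out was 1.13 in the F123 library of H3K27ac and 1.09 in that of J1 cells, and 1.06 in J1 cells over all bins with an alignment. Members with H3K4me3 numbered 30 with windows of 5 kb and 28 at 10 times the mean. With H3K27ac they numbered 11 and 6 in F123 cells, 6 and 4 in J1 cells, and 23 in J1 cells with windows of 1 kb. The other regions were not counted at these windows and thresholds, so the order of the shares was not checked there.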
